A study of Mus musculus and Rattus norvegicus with 24 samples.

Results

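The response of the Atf4 knockout mouse heart to 3 days of pressure overload was measured by RNA-seq in 6 of the 24 samples of the series. The 3 libraries labelled cKO TAC 3 d came from hearts with a conditional knockout of Atf4, taken 3 days after transverse aortic constriction (TAC), in which a tied aorta raises the pressure against which the left ventricle ejects. The 3 libraries labelled cKO sham came from hearts with the same knockout after sham surgery, so the loss of Atf4 is shared by both groups and is not what this comparison tests. All genes were members: of the 54532 genes in the count table, 15535 passed a filter on low counts and were tested. A further pair of groups with 3 hearts each, ctrl TAC 3 d and ctrl sham, without the knockout, serve as a yardstick for the size of the response, and 3 cKO TAC 7 d libraries are set beside it as values. The labels give no Cre driver, strain, sex or age, and do not say whether the 3 libraries of a group came from separate animals, and p-values therefore reflect only how far these libraries spread, which may be partly technical. One characteristic of the cKO samples is headed overexpression of ATF4, which goes against their titles and the design text, and the groups were taken from the titles.

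A ventricle under sudden pressure load switches on a set of genes that are otherwise active in the fetal heart, among them the natriuretic peptides and the skeletal isoform of actin, while its fibroblasts divide and lay down matrix and monocytes enter the muscle. Genes of fatty acid oxidation and of potassium channels usually go down in the same days. ATF4 is a transcription factor whose translation increases when protein synthesis is stressed, and it switches on genes of amino acid synthesis and import, one-carbon metabolism and tRNA charging, often through a composite DNA element shared with C/EBP proteins. In the heart it has been studied for its part in the defence against oxidative stress, which the study's title also names.

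Levels below are TMM-scaled CPM, counts brought to a common library total, and are not corrected for gene length, so they compare libraries and not genes. Values are listed in the order of replicates 1, 2 and 3. A fold change is a log2 value of cKO TAC 3 d over cKO sham with its standard error, and a gene is called when its Benjamini-Hochberg adjusted p from edgeR's quasi-likelihood test over all 15535 genes is under 0.05. Library totals of the 18 mouse hearts ran from 15106975 to 18112798 counts. The mitochondrial share of counts was 20.1% to 22.2% in cKO TAC 3 d and 21.8% to 22.8% in cKO sham. There were 3 libraries that stood apart in ways that touch the results. Replicate 2 of cKO TAC 3 d had a score of -55.8 on the second principal component (11.4% of the variance over 18 hearts). Replicate 3 of ctrl TAC 3 d had 87.7 on the first (39.6%). Its mitochondrial share was 10.6%, against 18.0% and 18.2% in replicates 1 and 2 of its group. Its sum over 15 ventricular markers was 41301 CPM, against 66463 and 72927 CPM in those 2. The ctrl values of gene lists below include this library. Replicate 1 of cKO TAC 3 d did not carry the load markers of its group, as described below. Heart muscle genes were abundant in every library, with 76999, 89969.7 and 78718 CPM summed over 15 ventricular markers in cKO TAC 3 d and 75905, 74527 and 82737 CPM in cKO sham.

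The targeted gene checked the labels. Atf4 (ENSMUSG00000042406, GRCm38 chromosome 15, 80255184 to 80257541, plus strand) stood at 24.8, 27.1 and 24.8 CPM in cKO TAC 3 d, against 20.99, 26.3 and 23.2 CPM in cKO sham, while the ctrl hearts held 91.0, 80.2 and 84.9 CPM in ctrl TAC 3 d and 66.2, 68.8 and 34.3 CPM in ctrl sham. The remaining Atf4 signal of all 6 cKO libraries lay below every ctrl library, and the cKO groups overlapped. Its fold change with TAC was 0.12 ± 0.19 in cKO, with an unadjusted p of 0.519, and 0.60 ± 0.18 in ctrl, with an adjusted p of 0.0219. Replicate 3 of ctrl sham, at 34.3 CPM, was the lowest of the ctrl libraries, and without it the ctrl fold change was 0.34 (adjusted p 0.0438). Without ctrl TAC 3 d replicate 1 it was 0.55 and no longer called (adjusted p 0.0603).

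No gene was called between cKO TAC 3 d and cKO sham by edgeR (0 of 15535, 0.0%), and the lowest adjusted p was 0.343. At an unadjusted p under 0.05 there were 1311 genes, 822 higher (5.29% of those tested) and 489 lower (3.15%). DESeq2 called 31 genes, 28 higher and 3 lower, and in each of these the libraries of the 2 groups did not overlap. In all, 1421 genes (9.15%) were higher in every cKO TAC 3 d library than in any cKO sham library, and 1082 (6.96%) were lower in every one. With 3 libraries against 3, an exact permutation test of a single gene cannot give a p below 0.1. In simulated counts with each gene's estimated spread, the same test recovered 68.5% of 200 genes changed 2-fold and 15.5% of 200 genes changed 1.5-fold. The changed genes were taken above a floor on their cKO sham level. Genes were drawn independently, without shifts of a whole library such as those seen here, so these shares may not carry over.

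The response was smaller in size than in ctrl hearts. The median absolute log2 fold change was 0.162 in cKO and 0.327 in ctrl, and 457 genes in cKO and 2218 in ctrl had an absolute log2 fold change of at least 1. In ctrl, edgeR called 2305 genes higher (14.8%) and 1920 lower (12.4%) after the same 3 days. Counts of list members that rose or fell in ctrl, given below, are to be read beside these shares. Without replicate 3 of ctrl TAC 3 d, the library that lay apart, the count in both directions was 2311, and without ctrl sham replicate 1 it was 2804, against 4225 with all. These genes were chosen by their change in ctrl, so a smaller median in cKO is in part fixed by the choice and is given as a description. Among the 2305, the median fold change was 0.17 in cKO, against 1.04 in ctrl, 76.9% were above 0 in cKO, beside 51.8% of all genes, and 468 (20.3%) were higher in every cKO TAC 3 d library than in any cKO sham library. Among the 1920, the median was -0.12 in cKO, against -0.64 in ctrl, 74.3% were below 0 in cKO, and 386 (20.1%) were lower in every library. Across the 15535 genes, which are not independent replicates, Pearson's r between the cKO and the ctrl fold changes was 0.358. Taken 1 at a time, the 3 cKO TAC 3 d libraries gave an r with the ctrl response of 0.198 (replicate 1), 0.159 (replicate 2) and 0.444 (replicate 3), so replicate 3 followed the ctrl pattern most closely.

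**Figure D1:**
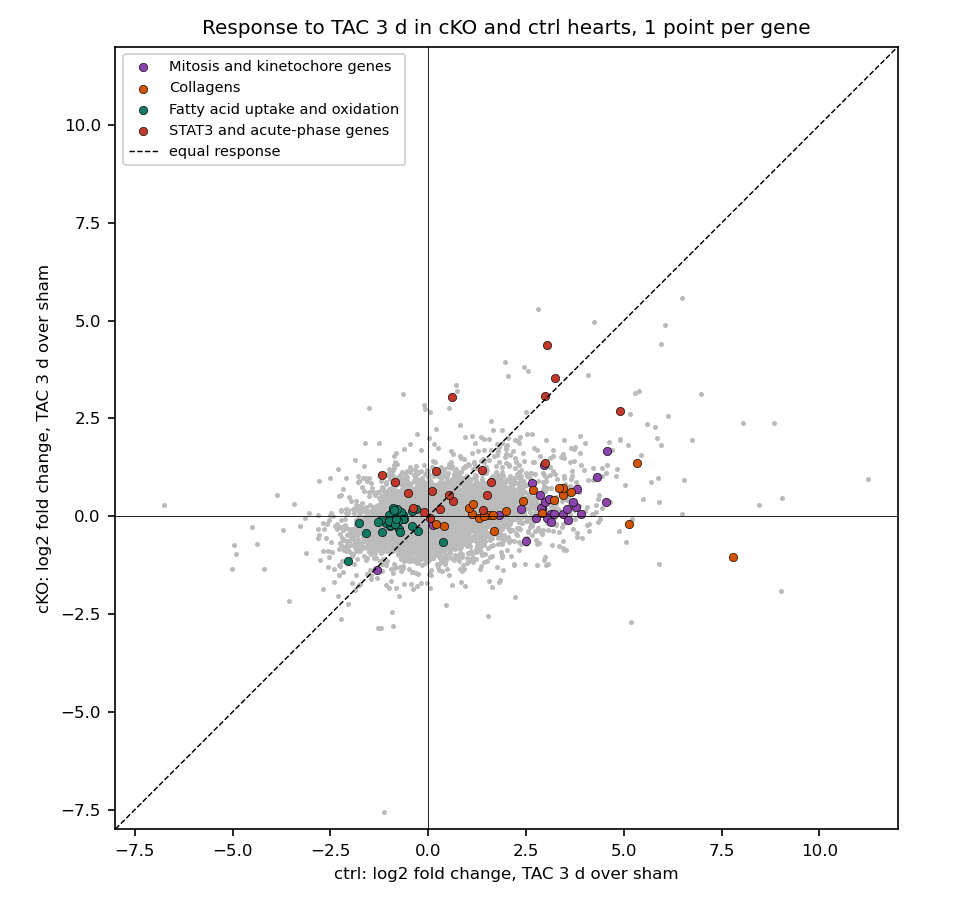
Log2 fold change of each tested gene with TAC at 3 days in cKO hearts (vertical axis) and in ctrl hearts (horizontal axis), 3 libraries per group, with 4 gene lists coloured. The cloud is wider along the ctrl axis, and collagens and mitosis genes reach far to the right while most stay near 0 on the cKO axis.

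The load markers split the cKO TAC 3 d libraries. Nppb, which encodes B-type natriuretic peptide, stood at 233, 1386 and 913 CPM in cKO TAC 3 d, against 315, 235 and 244 CPM in cKO sham. Replicates 2 and 3 lay well above all sham libraries and replicate 1 lay just below them. Its fold change was 1.67 ± 0.46 (unadjusted p 0.00198). Acta1, skeletal alpha-actin, had 664, 1465 and 1734 CPM in cKO TAC 3 d, against 343, 687 and 335 CPM in cKO sham, with replicates 2 and 3 again the highest and replicate 1 inside the sham range. Its fold change was 1.501 ± 0.41. Nppa, atrial natriuretic peptide, had 308, 851 and 1035 CPM in cKO TAC 3 d, against 701, 199.6 and 179 CPM in cKO sham, and here the groups overlapped, with sham replicate 1 the highest sham library and TAC replicate 1 below it. Its fold change was 1.02 ± 0.56, against 3.68 ± 0.62 in ctrl (adjusted p 7.86e-04). Ankrd1, a stretch-responsive titin-binding protein, had 1214, 3450 and 2959 CPM in cKO TAC 3 d, against 1788, 1688 and 1017 CPM in cKO sham, and replicate 1 was again within the sham range. Myh7, the slow myosin heavy chain, had 361, 1518 and 656 CPM in cKO TAC 3 d, against 349.8, 341 and 559.9 CPM in cKO sham, with replicate 2 far above the rest. None of these 5 genes was called in cKO.

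Over the 23 tested genes of the fetal programme and load response, the median fold change in cKO was 0.65, beside 0.01 over all genes, and 1.71 in ctrl, where 13 were called higher and 1 lower. Only 2 of the 23 were higher in every cKO TAC 3 d library than in any sham library (8.70%), near the 9.15% of all genes. Counted by library, 3 of 23 lay above the highest sham library in replicate 1, 17 in replicate 2 and 18 in replicate 3, whereas over all genes the shares were alike at 29.8%, 34.5% and 30.8%. Replicate 1 thus sat with the sham hearts in its load genes while its genome-wide share outside the sham range did not stand apart. Below the lowest sham library lay 27.0%, 33.8% and 27.1% of all genes. Counts by library in the lists below are to be read beside these shares of all genes. Without replicate 1, 14 of the 23 were higher in both remaining libraries, beside 16.6% of all genes, and edgeR called 6 genes (0.0386%). These 6 are named here after their values were seen, and all were higher. They were Tnfrsf12a, the receptor of the cytokine TWEAK, with 48.5, 236 and 222 CPM in cKO TAC 3 d, against 54.4, 69.5 and 80.1 CPM in cKO sham, Nppb, the small GTPase gene Arf6, the uridine phosphorylase gene Upp1, Lman1l and Hectd2os. With all libraries none of them was called. Without replicate 3 the median of the load list was 0.39. The cause of the split between replicates was not tested.

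**Figure D2:**
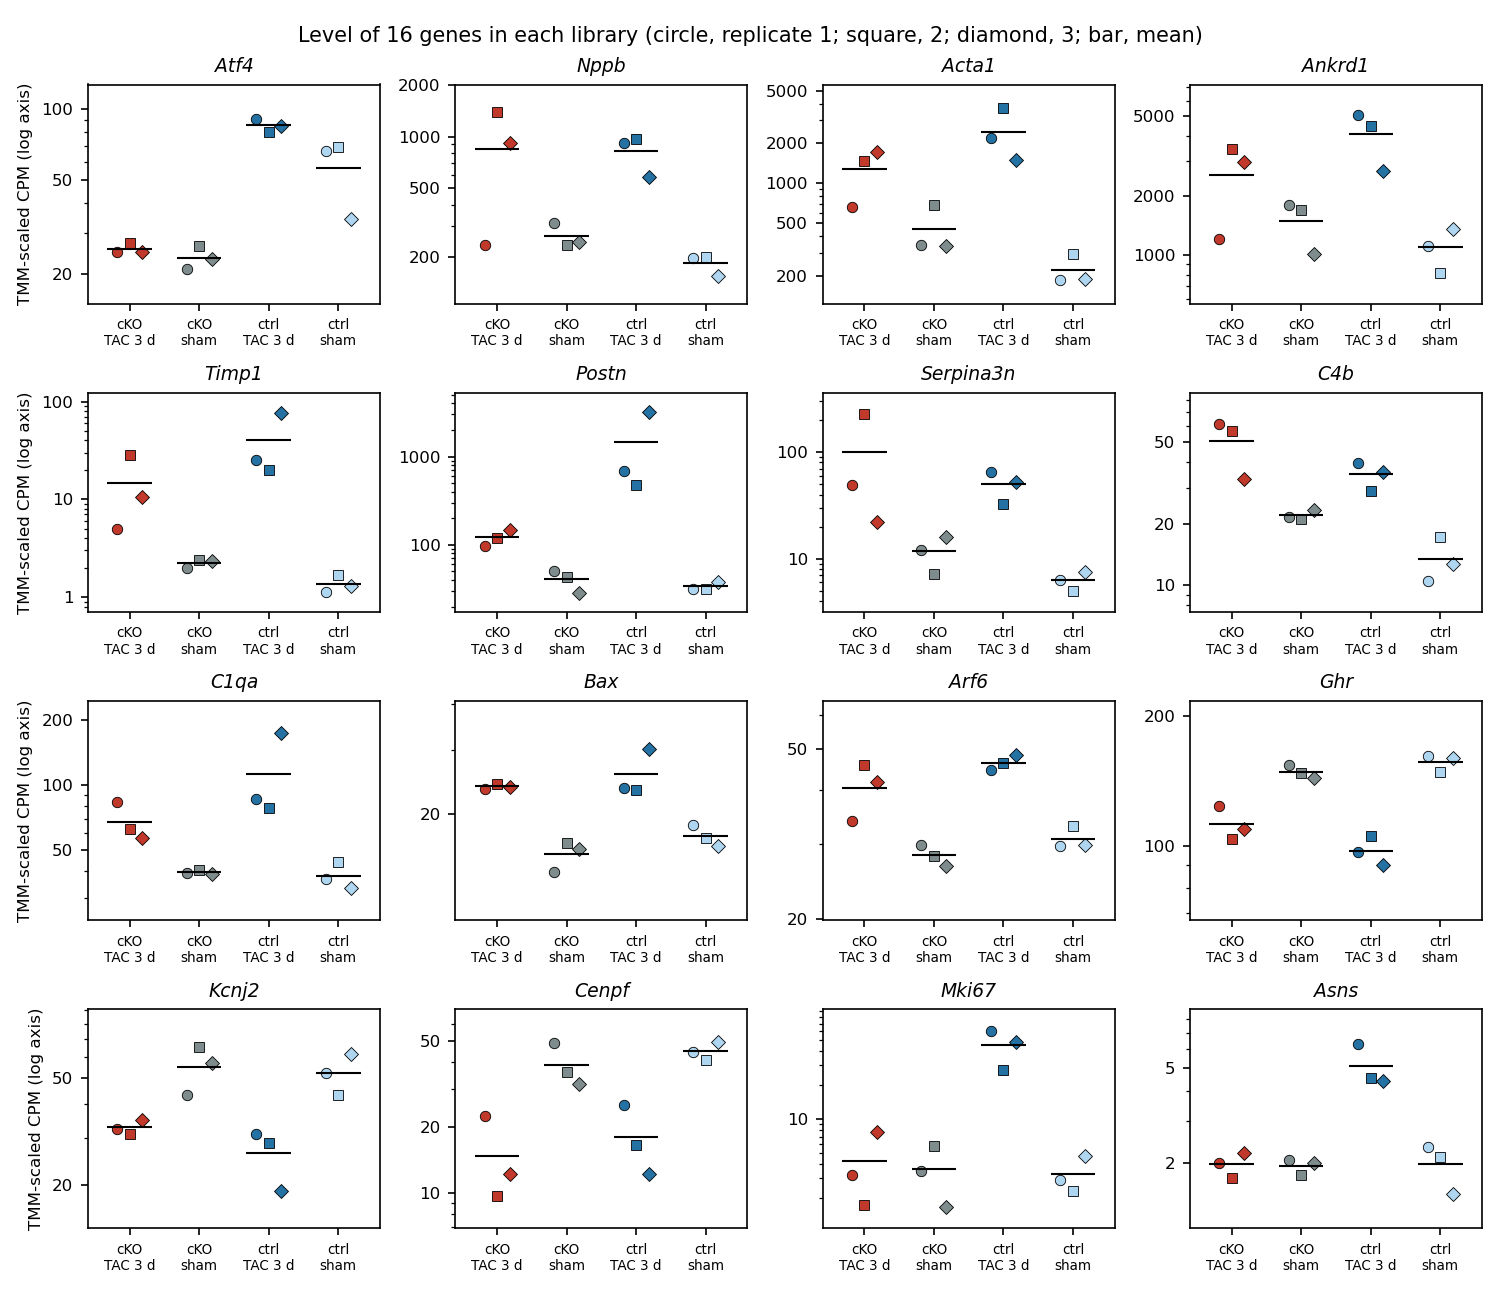
Level of 16 genes in CPM (log axis) in each library of cKO TAC 3 d, cKO sham, ctrl TAC 3 d and ctrl sham, where circle, square and diamond stand for replicates 1, 2 and 3 and the bar for the mean of 3. For Nppb and Acta1, replicate 1 of cKO TAC 3 d lies with the sham libraries while replicates 2 and 3 lie above them.

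Other early genes of load followed replicate 2 most. Of 25 immediate early genes, 6, 19 and 8 lay above the highest sham library in replicates 1, 2 and 3. Over all genes these shares were 29.8%, 34.5% and 30.8%. In every library 3 of the 25 were higher (12%), near the 9.15% of all genes. The median of the list was 0.27, and 0.08 without replicate 2. Maff, a small MAF transcription factor gene, was higher in all 3, at 14.3, 31.2 and 13.1 CPM in cKO TAC 3 d, against 7.16, 9.28 and 9.84 CPM in cKO sham (1.15 ± 0.33), with replicate 2 the highest. Among 19 targets of YAP and SRF, factors that respond to stretch and to actin, 4, 14 and 12 lay above the sham range in replicates 1, 2 and 3. Thbs1, the matricellular protein thrombospondin 1, showed this split at 6.98, 51.6 and 37.7 CPM in cKO TAC 3 d, against 8.04, 8.07 and 10.3 CPM in cKO sham. Its sham libraries were alike, and replicate 1 lay below all of them. Of the 19 targets, 2 were higher in every cKO TAC 3 d library (10.5%), near the 9.15% of all genes. In ctrl, 9 of the 19 were called higher and none lower.

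Above a floor of 1 on the mean log2 CPM scale, the 10 higher genes with the smallest unadjusted p had fold changes of 0.45 to 0.83 and have broad functions. Below that floor 2 further higher genes had a smaller p than the last of the 10, S100a9, described below, with a fold change of 3.35, and Vsig4, a complement receptor of macrophages, named after its values were seen, with 3.58. Arf6, which controls membrane traffic at the cell surface, stood at 34.0, 46.0 and 42.0 CPM in cKO TAC 3 d, against 29.8, 28.1 and 26.6 CPM in cKO sham. The groups did not overlap, and the fold change of 0.53 ± 0.10 (unadjusted p 8.38e-05, adjusted p 0.343) was close in size to the 0.60 ± 0.10 of ctrl. Bax, a pore-forming activator of apoptosis and a p53 target, had 23.4, 24.2 and 23.8 CPM in cKO TAC 3 d, against 13.8, 16.7 and 16.1 CPM in cKO sham. All TAC libraries were within 1 CPM of each other, and the fold change was 0.62 ± 0.12 in cKO and 0.57 ± 0.12 in ctrl. Cox6a1, a subunit of cytochrome c oxidase, had 132, 167 and 131 CPM in cKO TAC 3 d, against 100.1, 99.1 and 93.8 CPM in cKO sham (0.55 ± 0.11), with replicate 2 the highest. Capg, an actin-capping protein of macrophages and fibroblasts, had 15.3, 23.9 and 15.7 CPM in cKO TAC 3 d, against 11.7, 9.96 and 9.16 CPM in cKO sham (0.83 ± 0.18), beside 1.73 ± 0.18 in ctrl. Tbcc, which helps fold tubulin, Sra1, Pgls, an enzyme of the pentose phosphate pathway, Ppp1r14b, Cyb561 and Tmem159 had fold changes of 0.66, 0.48, 0.47, 0.59, 0.62 and 0.45. These 10 genes were chosen by their p and by groups that do not overlap, none was called by edgeR, and DESeq2 called all of them. The TAC libraries carried more signal in short genes: the rank correlation of a gene's level with its length, relative to all libraries, ran from -0.30 to -0.17 in cKO TAC 3 d and from -0.09 to -0.08 in cKO sham, and the median length was 2882 bases for genes higher in every library, 5543 for those lower in every one and 4043 over all. With levels corrected for gene length, 1224 genes were higher in every library and 1039 lower, against 1421 and 1082 without the correction. The edgeR fit with that correction also called 0 genes. Beyond these counts the part of gene length in the differences was not tested.

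Among the lower genes chosen in the same way, which passes over 1 gene below the floor, Gdap10, with an absolute fold change of 1.83, Ghr, the growth hormone receptor, stood at 124, 103 and 109.5 CPM in cKO TAC 3 d, against 154, 148 and 144 CPM in cKO sham. Every TAC library lay below every sham library, and the fold change was -0.40 ± 0.09 (unadjusted p 3.07e-04), beside -0.69 ± 0.09 in ctrl. Ltbp1, which stores latent TGF-beta in the matrix, had 55.5, 38.2 and 49.2 CPM in cKO TAC 3 d, against 72.2, 68.8 and 61.4 CPM in cKO sham (-0.50 ± 0.11). Cenpf, a kinetochore protein, had 22.6, 9.69 and 12.2 CPM in cKO TAC 3 d, against 48.9, 36.0 and 31.6 CPM in cKO sham (-1.38 ± 0.38), with replicate 2 of TAC the lowest and all TAC libraries below sham. It fell in ctrl too, with a fold change of -1.32 and an adjusted p of 0.0157, while most other mitosis genes rose there. Nr1d2, a repressor of the circadian clock, had 123, 81.8 and 97.2 CPM in cKO TAC 3 d, against 142, 165 and 139 CPM in cKO sham (-0.56 ± 0.15). Rassf9, Rfc1, the large subunit of the DNA clamp loader, Prdm10, Tmem140 and Mblac2 had fold changes of -0.81, -0.36, -0.55, -0.91 and -0.77. Of the lower genes named here, DESeq2 called Ghr, Ltbp1 and Rassf9.

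Many genes of the extracellular matrix were higher in all 3 TAC libraries, replicate 1 included. Of 34 matricellular and remodelling matrix genes, 15 were higher in every cKO TAC 3 d library than in any sham library and 0 were lower, beside 9.15% and 6.96% of all genes. By library, 26, 26 and 22 of the 34 lay above the sham range. Timp1, an inhibitor of matrix metalloproteinases, stood at 4.93, 28.6 and 10.6 CPM in cKO TAC 3 d, against 1.99, 2.40 and 2.37 CPM in cKO sham. Its sham libraries were nearly equal, and replicate 2 was the highest of the TAC libraries. The fold change was 2.68 ± 0.64 (unadjusted p 6.49e-04), beside 4.89 ± 0.69 in ctrl. Tnc, tenascin C, had 3.12, 16.8 and 18.6 CPM in cKO TAC 3 d, against 2.18, 2.40 and 1.87 CPM in cKO sham, with replicate 1 only just above sham, and a fold change of 2.57 ± 0.66, against 6.13 ± 0.73 in ctrl. Postn, periostin, the product of activated fibroblasts, had 97.6, 120.0 and 149 CPM in cKO TAC 3 d, against 50.5, 43.5 and 28.7 CPM in cKO sham (1.58 ± 0.61), and it had 688, 477 and 3206 CPM in ctrl TAC 3 d, against 31.6, 31.3 and 38.4 CPM in ctrl sham. Lox, which crosslinks collagen, had 9.54, 52.7 and 10.5 CPM in cKO TAC 3 d, against 4.36, 3.89 and 5.67 CPM in cKO sham, with all TAC libraries above sham and replicate 2 far above the other 2.

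Of 13 activated fibroblast markers 6 were higher in every library, with a median of 0.73 in cKO and 3.28 in ctrl, where 12 were called higher. Their summed level was 369.9, 503 and 532 CPM in cKO TAC 3 d, against 363, 302 and 165 CPM in cKO sham. The sums nearly met in TAC replicate 1 and sham replicate 1, and sham replicate 3 was the lowest. The 14 resting fibroblast markers had a median of 0.17, which was 0.03 without TAC replicate 1, and 3 members higher in every library, beside 9.15% of all genes, among them Mfap5, a microfibril protein, at 42.3, 62.6 and 49.3 CPM in cKO TAC 3 d, against 23.6, 27.2 and 20.2 CPM in cKO sham (1.12 ± 0.39). In bulk tissue, more cells of a type and more RNA per cell cannot be told apart.

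Of 22 collagen genes, 6 were higher in every library and 0 lower, beside 9.15% and 6.96% of all genes. The median was 0.10 in cKO, against 2.21 in ctrl, where 20 were called higher. By library of ctrl TAC 3 d, the median difference from the ctrl sham mean was 1.83, 1.31 and 2.89. Col1a1, the main chain of fibrillar collagen, had 241, 226 and 184 CPM in cKO TAC 3 d, against 161, 174 and 85.4 CPM in cKO sham (0.63 ± 0.52), with sham replicate 3 the lowest and no overlap. Col3a1 had 489, 346 and 396 CPM in cKO TAC 3 d, against 366, 391 and 162 CPM in cKO sham, so its groups overlapped. Col8a1, a short-chain collagen, had 47.1, 64.8 and 88.7 CPM in cKO TAC 3 d, against 49.8, 42.9 and 28.7 CPM in cKO sham, and 224, 179.6 and 566 CPM in ctrl TAC 3 d, against 33.3, 32.2 and 29.6 CPM in ctrl sham. Its interaction was -2.63 ± 0.56 with an adjusted p of 0.0477. The collagen median was -0.09 without sham replicate 3 and -0.01 without TAC replicate 3, and 0.20 to 0.22 without any 1 of the other 4 libraries.

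STAT3 and acute-phase genes, which respond to interleukin-6 type cytokines, had a median of 0.87 over 21 genes in cKO and 0.61 in ctrl. Of the 21, 9 were higher in every library, beside 9.15% of all genes. Serpina3n, a protease inhibitor of the acute phase, stood at 49.1, 229 and 21.9 CPM in cKO TAC 3 d, against 12.1, 7.21 and 16.1 CPM in cKO sham. All TAC libraries lay above sham, and replicate 2 was more than 4 times the next highest. The fold change was 3.08 ± 0.69 (unadjusted p 3.62e-04), beside 3.00 ± 0.71 in ctrl, and without replicate 2 it was 1.59. Lcn2, an iron-scavenging protein of the acute phase, had 5.24, 53.5 and 4.33 CPM in cKO TAC 3 d, against 2.06, 1.77 and 3.74 CPM in cKO sham, again with replicate 2 far above. Stat3 itself had 180.3, 230.2 and 211 CPM in cKO TAC 3 d, against 153, 156 and 166 CPM in cKO sham (0.39 ± 0.10), a small and even difference, and complement C4b had 61.2, 56.8 and 32.9 CPM in cKO TAC 3 d, against 21.6, 21.01 and 23.4 CPM in cKO sham (1.19 ± 0.28). Without replicate 2 the list's median was 0.41. Spp1, osteopontin, named after its values were seen, was detected in replicate 2 at 32.0 CPM and at 1.12 CPM or less in the other 5 libraries.

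Of 21 macrophage markers 7 were higher in every TAC library and 0 lower, beside 9.15% and 6.96% of all genes. Their median was 0.48, against 1.60 in ctrl, where 16 were called higher. Their summed level was 517, 421 and 358 CPM in cKO TAC 3 d, against 308, 282 and 291 CPM in cKO sham, with no overlap. By library 18, 12 and 11 of 21 lay above the sham range and 1, 6 and 2 below it. The defining markers Adgre1, with 252, 78 and 186 raw counts in cKO TAC 3 d, against 141, 162 and 128 in cKO sham, and Csf1r, with 914, 470 and 765 against 706, 635 and 599, lay below sham in replicate 2. Mrc1, the mannose receptor of resident macrophages, had 40.2, 34.8 and 28.9 CPM in cKO TAC 3 d, against 24.3, 18.2 and 21.8 CPM in cKO sham (0.69 ± 0.16, unadjusted p 6.09e-04), beside 0.91 ± 0.16 in ctrl. C1qa, a chain of complement C1q made by macrophages, had 83.2, 62.3 and 56.8 CPM in cKO TAC 3 d, against 39.2, 40.3 and 38.5 CPM in cKO sham. Both genes were higher in all 3 TAC libraries, and were highest in replicate 1, which lacked the load markers. Without replicate 1 the median of the list was 0.20.

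Only 4 of 10 neutrophil markers were tested. S100a9, a calcium-binding protein of neutrophils, had 3.74, 4.28 and 0.844 CPM in cKO TAC 3 d, against 0.311, 0.458 and 0.0623 CPM in cKO sham (3.35 ± 0.70, unadjusted p 1.85e-04), at 60, 57 and 15 raw counts against 5, 8 and 1. Its partner S100a8 had 33, 28 and 5 raw counts in cKO TAC 3 d, against 1, 0 and 2 in cKO sham. These counts are small, and the groups of both genes did not overlap. Among 24 cytokines and chemokines, 3 were higher in every library (12.5%), near the 9.15% of all genes. Ccl7, a chemokine that draws monocytes, was among the 3. It had 2.56, 2.40 and 3.94 CPM in cKO TAC 3 d, against 0.997, 0.687 and 1.43 CPM in cKO sham (1.52 ± 0.42). Interferon-stimulated genes were low in 2 of the libraries. Of 26, 4, 22 and 14 lay below the lowest sham library in replicates 1, 2 and 3, beside 27.0%, 33.8% and 27.1% of all genes. In replicate 1, 11 of the 26 lay above the sham range, beside 29.8% of all genes. Lower in every library were 2 of the 26 (7.69%), near the 6.96% of all genes, and 1 was higher. The median was -0.23, against 0.90 in ctrl, where 13 were called higher. The median was -0.42 without replicate 1 and -0.02 without replicate 2. Ifi27l2a was an exception, at 34.6, 18.9 and 25.5 CPM in cKO TAC 3 d, against 17.6, 14.5 and 10.8 CPM in cKO sham (0.88 ± 0.26).

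Amino acid genes that ATF4 is known to switch on were examined because Atf4 is the gene knocked out. The composite element that ATF4 binds with C/EBP proteins was searched as TGATGNAA on both strands, from 250 bases before to 50 after the RefSeq start, and 309 of 11129 promoters of tested genes (2.78%) held it, as did 5 of 18 ATF4 amino acid targets with a promoter in the table. Asns, asparagine synthetase, and Pck2, the mitochondrial PEP carboxykinase, are shown as examples that hold it; the choice was made after their values were seen. The lines give the 150 bases before each start on the gene's strand (RefSeq, GRCm38.p6), Asns at chr6:7693210-7693359 on the minus strand and Pck2 at chr14:55540116-55540265 on the plus strand, with the element in capitals. In Pck2 it reads on the opposite strand.
Asns: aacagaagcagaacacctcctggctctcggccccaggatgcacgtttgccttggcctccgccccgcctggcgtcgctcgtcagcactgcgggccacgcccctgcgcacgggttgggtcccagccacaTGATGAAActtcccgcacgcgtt
Pck2: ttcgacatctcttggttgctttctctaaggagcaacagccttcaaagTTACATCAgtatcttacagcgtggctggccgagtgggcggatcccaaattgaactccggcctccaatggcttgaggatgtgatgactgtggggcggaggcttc

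Asns had 2.00, 1.73 and 2.19 CPM in cKO TAC 3 d, against 2.06, 1.77 and 1.99 CPM in cKO sham, and the cKO groups overlapped fully with a fold change of 0.03 ± 0.26. In ctrl it had 6.31, 4.53 and 4.40 CPM in ctrl TAC 3 d, against 2.34, 2.11 and 1.49 CPM in ctrl sham, and it rose there (1.36 ± 0.25, adjusted p 0.00131). The interaction was -1.33 ± 0.36 and was not called (adjusted p 0.0791). Pck2 was lower in every cKO TAC library, at 15.6, 14.2 and 14.6 CPM in cKO TAC 3 d, against 17.1, 17.2 and 15.9 CPM in cKO sham (-0.18 ± 0.14). Other members were higher after TAC although Atf4 was low: Mthfd2, a mitochondrial one-carbon enzyme, stood at 2.56, 2.70 and 2.70 CPM in cKO TAC 3 d, against 1.25, 1.77 and 1.18 CPM in cKO sham (0.91 ± 0.28), beside 2.42 ± 0.27 in ctrl, and Psat1 of serine synthesis at 3.68, 3.98 and 5.34 CPM in cKO TAC 3 d, against 2.49, 3.09 and 2.62 CPM in cKO sham (0.67 ± 0.27), beside 1.84 ± 0.27 in ctrl. Both were higher in all 3 TAC libraries at less than the ctrl change. Slc3a2, the heavy chain of the large neutral amino acid transporter, had 42.5, 78.5 and 41.9 CPM in cKO TAC 3 d, against 31.6, 33.1 and 38.3 CPM in cKO sham (0.66 ± 0.20), with replicate 2 the highest and a fold change of 0.30 without it. Over the 23 amino acid targets, 4 were higher in every library (17.4%) and 3 lower (13.0%), beside 9.15% and 6.96% of all genes, with a median of 0.17 (0.28 without sham replicate 3 and 0.26 without sham replicate 1), and in ctrl 10 were called higher and 3 lower. Of 18 stress regulators of the same pathway 5 were higher and 1 lower. Atf3, itself a stress factor, had 5.42, 16.9 and 12.3 CPM in cKO TAC 3 d, against 3.55, 3.21 and 6.48 CPM in cKO sham (1.38 ± 0.48), with replicate 1 within the sham range, and Ddit3, which encodes CHOP, had 22.1, 22.8 and 19.5 CPM in cKO TAC 3 d, against 19.1, 18.7 and 16.2 CPM in cKO sham (0.25 ± 0.11). Of 20 cytosolic aminoacyl-tRNA synthetases, the enzymes that charge tRNAs, 6 were higher and 1 lower around a median of 0.01. Rars, the arginyl enzyme, had 36.2, 36.6 and 36.0 CPM in cKO TAC 3 d, against 28.5, 31.8 and 29.5 CPM in cKO sham (0.28 ± 0.08).

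The redox genes gave small differences. Of 31 glutathione and thioredoxin genes 6 were higher in every library and 1 lower, with a median of 0.10 in cKO and -0.20 in ctrl, where 8 were called higher and 10 lower. Txn1, thioredoxin, had 56.1, 63.1 and 54.9 CPM in cKO TAC 3 d, against 43.8, 48.8 and 46.0 CPM in cKO sham (0.33 ± 0.10), beside 0.52 ± 0.10 in ctrl. Among 23 NRF2 targets and oxidant genes, 6 were higher and 1 lower. Hmox1, heme oxygenase 1, had 12.7, 14.5 and 12.7 CPM in cKO TAC 3 d, against 8.47, 7.62 and 9.72 CPM in cKO sham (0.63 ± 0.30), beside 1.66 ± 0.31 in ctrl (adjusted p 0.00136), and Ncf4, a subunit of the phagocyte NADPH oxidase, had 2.99, 1.95 and 2.02 CPM in cKO TAC 3 d, against 0.685, 0.973 and 1.495 CPM in cKO sham (1.14 ± 0.35). Nqo1, a quinone reductase, had 41.1, 70.7 and 37.3 CPM in cKO TAC 3 d, against 42.0, 43.5 and 45.05 CPM in cKO sham, with replicate 2 above and the others below sham. Of 18 genes of the pentose phosphate pathway and NADPH supply, 3 were higher in every library (16.7%) and 1 lower (5.56%), beside 9.15% and 6.96% of all genes. Pgls, its lactonase, had 66.8, 81.2 and 60.2 CPM in cKO TAC 3 d, against 49.6, 50.3 and 50.6 CPM in cKO sham (0.47 ± 0.10). G6pdx, which opens the pathway, had 6.11, 5.48 and 7.99 CPM in cKO TAC 3 d, against 5.61, 5.33 and 6.36 CPM in cKO sham, so that its groups overlapped, and rose in ctrl (0.86 ± 0.20, adjusted p 0.00544).

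Many genes of the ribosome and of the proteasome, which make and clear proteins, were higher by a small amount. Of 42 cytosolic ribosomal protein genes 22 were higher in every TAC library and 0 lower, beside 9.15% and 6.96% of all genes. Their median was 0.19, close to the 0.24 of ctrl, where 15 were called higher. By library 34, 33 and 29 of 42 lay above the sham range, so the 3 replicates were alike here. Rps19, of the small subunit, had 174, 177 and 153 CPM in cKO TAC 3 d, against 119, 125 and 137 CPM in cKO sham (0.40 ± 0.11). Of 31 proteasome subunits 15 were higher and 0 lower around a median of 0.12, against -0.04 in ctrl. There 2 of the 31 were called higher, beside 14.8% of all genes. Psmd14, the deubiquitinase of the proteasome lid, had 42.0, 48.7 and 43.9 CPM in cKO TAC 3 d, against 35.4, 37.0 and 36.3 CPM in cKO sham (0.31 ± 0.09). With levels corrected for gene length, 19 of the 42 ribosomal genes and 6 of the 31 proteasome genes were higher in every library. Under that correction 1224 of all 15535 genes were higher in every library. ER chaperones, by contrast, had 1 member higher and 4 lower of 21, among them Canx, calnexin, at 209.7, 219 and 232 CPM in cKO TAC 3 d, against 257, 257 and 282 CPM in cKO sham (-0.27 ± 0.10). In ctrl 10 of the 21 rose and 2 fell, beside 14.8% and 12.4% of all genes, with Canx among the 2 (-0.33, adjusted p 0.0180). Of 22 cytosolic heat shock proteins 3 were higher (13.6%), near the 9.15% of all genes. Hspb7, a small heat shock protein of heart muscle, had 2583, 4697 and 3986 CPM in cKO TAC 3 d, against 2706, 2630 and 2744 CPM in cKO sham, following the load markers in that replicate 1 was low. Among 21 genes of autophagy and muscle atrophy, 4 were higher and 2 lower. Fbxo32, the ubiquitin ligase atrogin-1, had 131, 126 and 86.8 CPM in cKO TAC 3 d, against 164, 170.0 and 161 CPM in cKO sham (-0.53 ± 0.15), beside -0.63 ± 0.15 in ctrl.

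Lists of energy genes that fell in ctrl hearts had medians nearer 0 in cKO. In ctrl TAC 3 d they lay furthest from 0 in replicate 3, the library that lay apart. As differences from the ctrl sham mean, the medians by library were -0.41, -0.25 and -1.14 for oxidative phosphorylation. For fatty acid genes they were -0.65, -0.41 and -1.75. In cKO TAC 3 d the same measure gave 0.12, 0.25 and -0.06, and -0.10, -0.11 and -0.13. Nuclear genes of oxidative phosphorylation had a median of 0.10 over 34 genes, with 7 higher in every library (20.6%) and 2 lower (5.88%). Over all genes these shares were 9.15% and 6.96%. In ctrl the median of the list was -0.57 and 21 fell. Libraries differed: 19, 29 and 7 of the 34 lay above the sham range in replicates 1, 2 and 3, and 3, 2 and 18 below it. The median was 0.02 without replicate 2 and 0.18 without replicate 3. The list of fatty acid uptake and oxidation had a median on the same side of 0 as in ctrl, with 8 of 34 lower in every library and 1 higher, at -0.13, against -0.84 in ctrl, where 24 fell. Cpt1a, a carnitine palmitoyltransferase, had 41.3, 41.6 and 52.1 CPM in cKO TAC 3 d, against 59.98, 65.3 and 49.0 CPM in cKO sham (-0.37 ± 0.15), and Cpt1b, the muscle form, 15.3, 17.5 and 17.4 CPM in cKO TAC 3 d, against 18.3, 21.1 and 20.4 CPM in cKO sham (-0.25 ± 0.29). Cd36, the fatty acid transporter, had 1302, 1896 and 1271 CPM in cKO TAC 3 d, against 1425, 1432 and 1521 CPM in cKO sham, with replicate 2 above and the others below sham, and fell in ctrl (-0.76 ± 0.22, adjusted p 0.0192). Breakdown of branched-chain amino acids had a median of -0.02 over 19 genes in cKO, against -0.79 in ctrl, where 17 fell. Ppargc1a, the coactivator PGC-1 alpha that drives mitochondrial genes, had 90.3, 138 and 183 CPM in cKO TAC 3 d, against 112, 99.8 and 223 CPM in cKO sham, and fell in ctrl (-0.96 ± 0.31). The test of the difference between genotypes follows with the interaction. Mitochondrial transcripts had no member of 13 that separated the groups, and the one with the smallest p, mt-Atp8, overlaps mt-Atp6 and was high in replicate 3 alone (13.7, 16.3 and 234 CPM in cKO TAC 3 d, against 6.91, 22.3 and 7.17 CPM in cKO sham), so its count is uncertain. Of 25 glycolysis genes, 10 were higher in every library (40%) and 1 lower (4%), with a median of 0.16, against -0.06 in ctrl. Tpi1, triosephosphate isomerase, had 902, 1067 and 848 CPM in cKO TAC 3 d, against 732, 737 and 749.9 CPM in cKO sham (0.34 ± 0.11), beside -0.01 ± 0.11 in ctrl.

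Genes of contraction gave few differences. Of 23 sarcomere genes 2 were higher and 1 lower, and Myh6, the main myosin heavy chain of the mouse ventricle, had a fold change of -0.03 ± 0.28. Tnnc1, cardiac troponin C, had 2206, 2668 and 2337 CPM in cKO TAC 3 d, against 1768, 1806 and 1866 CPM in cKO sham (0.41 ± 0.15). Of 24 potassium and sodium channels and connexins 6 were lower in every library and 1 higher, beside 6.96% and 9.15% of all genes, with a median of -0.09, against -0.66 in ctrl, where 13 fell. That median was -0.21 without sham replicate 3, -0.15 without TAC replicate 1, -0.04 without sham replicate 1 and -0.03 without sham replicate 2. Kcnj2, the inward rectifier that sets the resting potential, had 32.3, 31.0 and 34.8 CPM in cKO TAC 3 d, against 43.3, 65.5 and 57.1 CPM in cKO sham (-0.76 ± 0.22, unadjusted p 0.00332), and it fell in ctrl as well (adjusted p 0.00413). Kcnd2, of the transient outward current, had 16.5, 4.96 and 12.3 CPM in cKO TAC 3 d, against 22.3, 21.9 and 18.4 CPM in cKO sham (-0.88 ± 0.31), lowest in replicate 2. Adra1a, an alpha-1 adrenergic receptor, had 10.0, 4.58 and 6.70 CPM in cKO TAC 3 d, against 11.3, 10.99 and 10.8 CPM in cKO sham (-0.63 ± 0.27). All 3 genes were lower in each TAC library, including replicate 1, than in any sham library. Vegfc, a lymphatic growth factor, was lower in every TAC library (4.99, 6.16 and 7.14 CPM in cKO TAC 3 d, against 7.54, 8.30 and 8.22 CPM in cKO sham), 1 of 22 hypoxia and angiogenic factors to be so. Of 20 clock genes 3 were lower and 1 higher, and of 21 genes of calcium handling and adrenergic signalling 2 were lower and 1 higher, beside 6.96% and 9.15% of all genes.

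**Figure D3:**
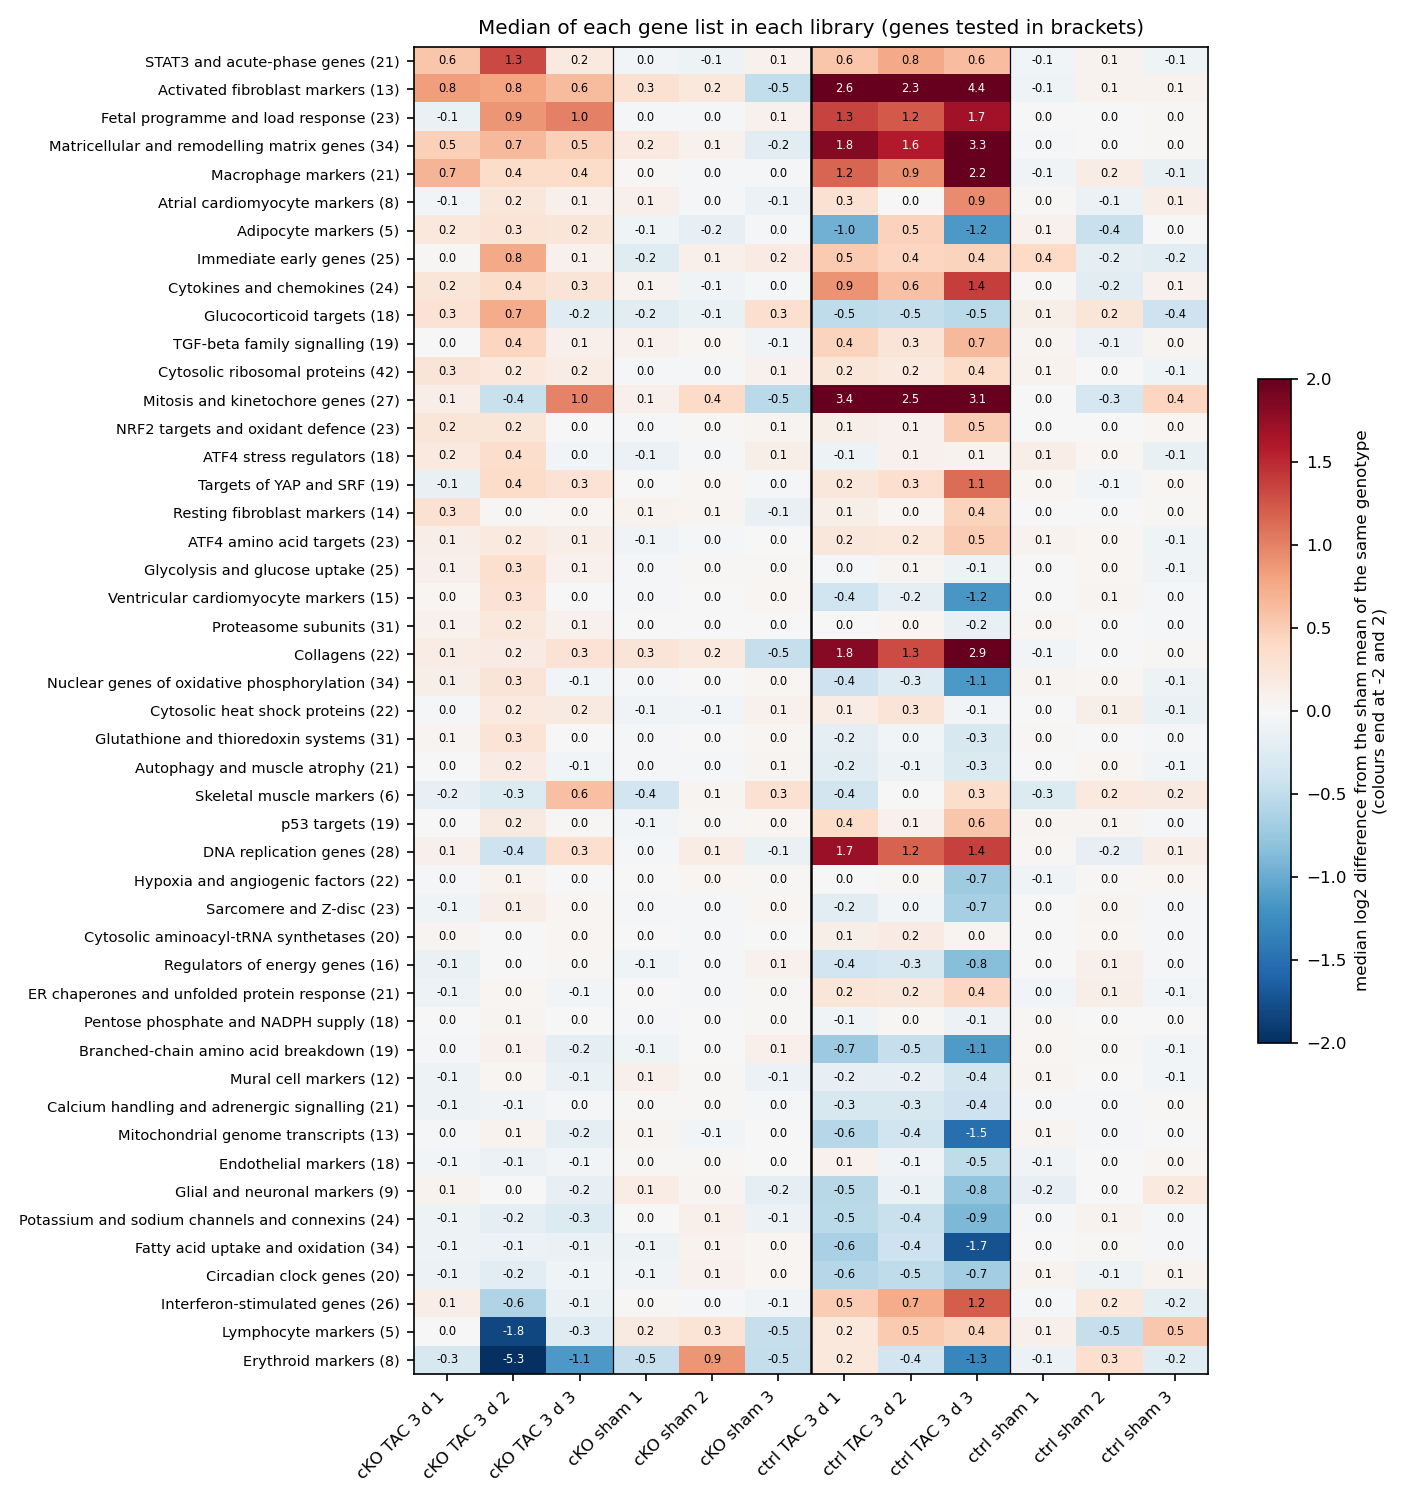
Median log2 difference of each gene list from the mean of the same genotype's sham libraries, for lists of at least 5 tested genes (rows) in every library of cKO TAC 3 d, cKO sham, ctrl TAC 3 d and ctrl sham (columns). Load genes are near 0 in cKO TAC 3 d replicate 1 and about 1 in replicates 2 and 3, while the lists of collagens and of matricellular genes are higher in each ctrl TAC 3 d library than in any cKO TAC 3 d library.

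Markers of other cell types that a heart sample can hold had medians from -1.43 (erythroid) to 0.49 (epicardial, 4 tested genes), beside the fibroblast and immune lists above. The summed level of 18 endothelial markers was 2566, 2600.0 and 2675 CPM in cKO TAC 3 d, against 2726, 2731 and 2817 CPM in cKO sham, a small difference with no overlap and a median fold change of -0.06. Mural cell markers summed to 1331, 1437 and 1391 CPM in cKO TAC 3 d, against 1548, 1439 and 1335 CPM in cKO sham, and overlapped. Erythroid markers, a sign of blood left in the tissue, differed: 308, 29.1 and 239.7 CPM in cKO TAC 3 d, against 387, 996 and 380.2 CPM in cKO sham, over 8 genes. Hba-a1, alpha-globin, had 90.2, 3.53 and 77.5 CPM in cKO TAC 3 d, against 125, 318 and 129.8 CPM in cKO sham, so replicate 2, the library that was highest in acute-phase and early genes, had by far the lowest globin level, and the median of the erythroid list was -1.43 with it and -0.88 without it. That median was -0.71 without sham replicate 2, which had the highest globin level, and -2.23 without TAC replicate 1. The part of blood content in the other results was not tested. Of the lists with few tested members, Cidea of adipocytes had 27.9, 32.7 and 28.6 CPM in cKO TAC 3 d, against 22.7, 26.5 and 23.5 CPM in cKO sham (0.29 ± 0.09), Cd4 of lymphocytes 0.624, 0.150 and 0.788 CPM in cKO TAC 3 d, against 1.12, 0.744 and 0.685 CPM in cKO sham, and Wt1 of the epicardium 5.55, 5.71 and 8.61 CPM in cKO TAC 3 d, against 3.74, 5.04 and 4.80 CPM in cKO sham. Cidea and Wt1 were higher in every TAC library, and the Cd4 groups overlapped. The atrial genes Sln and Myl7 had 0 to 3 counts per library, so these defining atrial markers were all but absent.

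Genes of cell division, which rose widely in ctrl hearts, mostly did not separate the cKO groups. Of 27 mitosis and kinetochore genes, 2 were higher in every cKO TAC 3 d library (7.41%) and 1 lower (3.70%), beside 9.15% and 6.96% of all genes. Their median was 0.19, whereas 25 rose in ctrl around a median of 3.10. Mki67, the Ki-67 antigen of dividing cells, had 3.18, 1.73 and 7.76 CPM in cKO TAC 3 d, against 3.49, 5.78 and 1.68 CPM in cKO sham, and 60.3, 27.4 and 48.5 CPM in ctrl TAC 3 d, against 2.87, 2.31 and 4.71 CPM in ctrl sham. The cKO groups overlapped fully, and each ctrl TAC 3 d library was at least 5 times above every ctrl sham library. Ccnf, cyclin F, which is not in that list, had 0.748, 0.300 and 0.844 CPM in cKO TAC 3 d, against 0.997, 1.202 and 0.623 CPM in cKO sham, and 5.68, 3.76 and 6.46 CPM in ctrl TAC 3 d, against 0.535, 0.3202 and 0.258 CPM in ctrl sham. Replicates differed within cKO TAC 3 d: 7, 3 and 18 of the 27 mitosis genes lay above the sham range in replicates 1, 2 and 3, and 14 lay below it in replicate 2. Over all genes 29.8%, 34.5% and 30.8% lay above it, and 33.8% lay below it in replicate 2. The median was -0.22 without replicate 3 and -0.11 without sham replicate 3, against 0.32 and 0.43 without TAC replicates 1 and 2, 0.10 without sham replicate 1 and 0.61 without sham replicate 2. Cdc20, which activates the anaphase-promoting complex, was one of the 2 genes above sham in all 3, at 1.75, 1.73 and 3.09 CPM in cKO TAC 3 d, against 1.12, 1.49 and 1.06 CPM in cKO sham (0.85 ± 0.41). Of 28 DNA replication genes 1 was higher in every library (3.57%) around a median of 0.05, against 1.45 in ctrl, where 23 rose. Among 19 p53 targets, 2 were higher (10.5%), near the 9.15% of all genes.

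Many mitosis genes carry the cell cycle homology region in their promoters, through which the DREAM complex keeps them silent in resting cells. Its core, TTTGAA, was searched on both strands in the same windows. It was found in 18 of 24 mitosis genes with a promoter in the table, and in 1602 of 11129 promoters of tested genes (14.4%), and 2 of 21 DNA replication genes held it. The ATF4 element was in 0 of the 24. As examples, 3 cell division genes of different behaviour, chosen after their values were seen, of which Ccnf is not in the mitosis list, are shown by the 150 bases before the start on the gene's strand (RefSeq, GRCm38.p6), with the core in capitals, Mki67 at chr7:135716380-135716529, Ccnf at chr17:24251410-24251559 and Cdc20 at chr4:118437344-118437493, all on the minus strand.
Mki67: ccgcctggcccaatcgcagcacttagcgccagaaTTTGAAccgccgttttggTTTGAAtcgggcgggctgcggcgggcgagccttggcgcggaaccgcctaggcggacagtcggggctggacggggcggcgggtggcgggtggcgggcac
Ccnf: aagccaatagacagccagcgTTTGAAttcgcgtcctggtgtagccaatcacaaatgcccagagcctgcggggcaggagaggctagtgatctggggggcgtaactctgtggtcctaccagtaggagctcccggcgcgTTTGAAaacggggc
Cdc20: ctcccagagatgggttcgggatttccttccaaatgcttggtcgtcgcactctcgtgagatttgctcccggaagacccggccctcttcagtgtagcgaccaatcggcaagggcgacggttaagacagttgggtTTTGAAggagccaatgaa

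Mki67 and Ccnf each hold the core at 2 places and Cdc20 at 1, all 3 rose in ctrl, and of these 3 Cdc20 alone separated the cKO groups. A match is only a match of letters and says nothing on binding in these hearts.

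**Figure D4:**
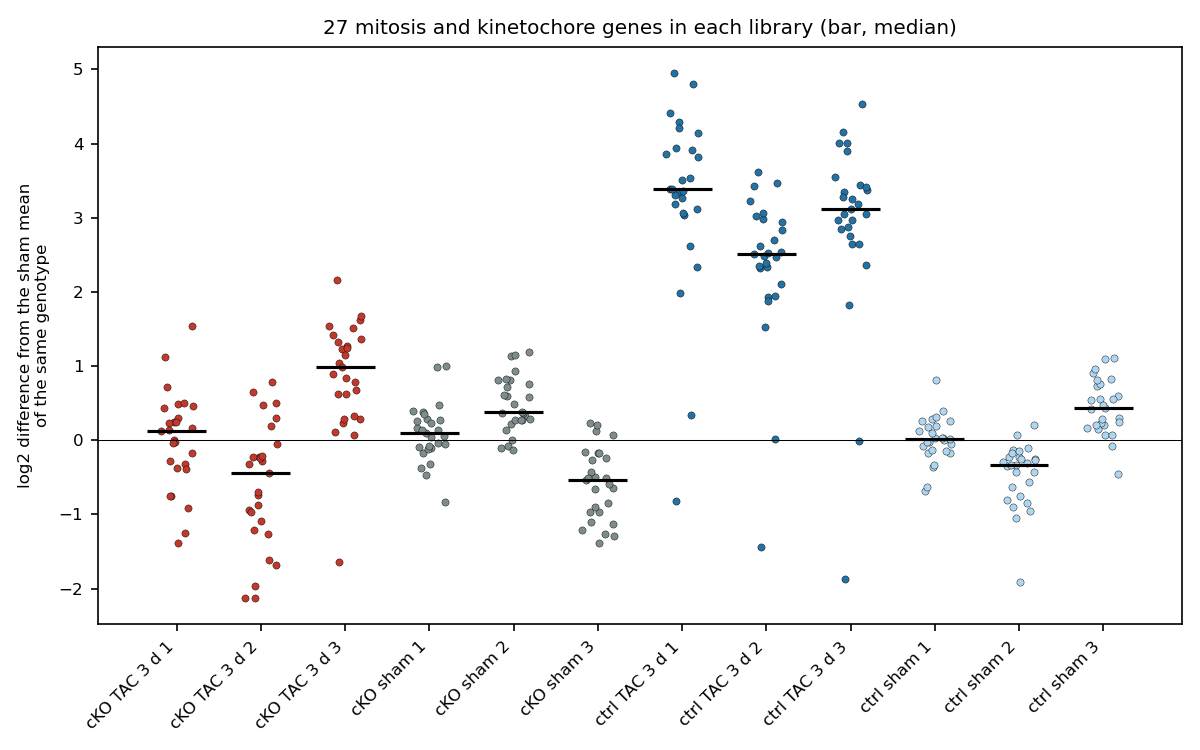
Log2 difference of each of 27 mitosis and kinetochore genes from the mean of the same genotype's sham libraries (vertical axis), in each library (horizontal axis), where a point is a gene and the bar the median. Points of cKO TAC 3 d spread around 0 with replicate 3 the highest, while most points of ctrl TAC 3 d lie above 2.

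The difference between the genotypes was tested as the interaction of genotype and TAC. It called 104 genes, 28 with a higher (0.18%) and 76 with a lower (0.489%) log2 change in cKO, and 3290 had an unadjusted p under 0.05. Of the 104, 103 were also called with TAC in ctrl and 102 had the smaller absolute change in cKO. Since no gene was called in cKO, the 103 and 102 are in part fixed by the choice and are given as a description. This count depends on single libraries: it was 0 without any 1 of 8 of the 12 libraries, 1 without ctrl sham replicate 2, 488 without cKO TAC 3 d replicate 3, 132 without cKO sham replicate 3 and 1469 without ctrl TAC 3 d replicate 2. The 6 most negative called genes that pass the rule on level were Ccnf, Cdca8, Mki67, Ect2, Anln and Kif4, all of cell division. The largest was -4.36 ± 0.81 for Ccnf (adjusted p 0.0415) and the smallest of the 6 -3.20 ± 0.69 for Kif4 (adjusted p 0.0496). Anln, anillin of the contractile ring, had 1.56, 0.901 and 3.21 CPM in cKO TAC 3 d, against 1.62, 2.92 and 1.81 CPM in cKO sham, and 22.9, 10.1 and 17.4 CPM in ctrl TAC 3 d, against 1.94, 1.60 and 2.20 CPM in ctrl sham, which shows the pattern: the ctrl groups stood apart, while the cKO groups overlapped.

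The 6 most positive were genes that fell in ctrl and were not called in cKO. Fmo2, a flavin monooxygenase, had 57.4, 105 and 33.8 CPM in cKO TAC 3 d, against 33.1, 33.5 and 53.8 CPM in cKO sham, and 8.13, 10.7 and 7.80 CPM in ctrl TAC 3 d, against 42.9, 40.8 and 37.7 CPM in ctrl sham. It was below sham in every ctrl TAC 3 d library, and highest in replicate 2 of cKO TAC 3 d. Its interaction was 2.89 ± 0.44 (adjusted p 0.0415). Inmt, an indole methyltransferase, had 3.49, 4.05 and 2.19 CPM in cKO TAC 3 d, against 5.17, 2.98 and 7.66 CPM in cKO sham, and 0.227, 0.327 and 0.239 CPM in ctrl TAC 3 d, against 7.42, 2.75 and 6.91 CPM in ctrl sham (3.69 ± 0.63). Ppl, periplakin, had 10.3, 9.39 and 7.82 CPM in cKO TAC 3 d, against 8.53, 6.87 and 10.5 CPM in cKO sham, and 0.739, 2.23 and 0.574 CPM in ctrl TAC 3 d, against 10.96, 8.32 and 9.88 CPM in ctrl sham (3.13 ± 0.54). Penk, which encodes the enkephalin precursor, and Gsta3, a glutathione transferase, had interactions of 3.03 ± 0.52 and 2.40 ± 0.48. Klf15, a repressor of hypertrophic genes and regulator of amino acid breakdown, had 85.3, 103 and 38.0 CPM in cKO TAC 3 d, against 66.6, 62.5 and 70.9 CPM in cKO sham, and 23.3, 31.4 and 13.0 CPM in ctrl TAC 3 d, against 93.8, 82.2 and 69.3 CPM in ctrl sham (2.04 ± 0.45, adjusted p 0.0496). Among the lists, the interaction called 7 mitosis genes, 3 collagens, 2 matricellular genes and 1 DNA replication gene lower, and 1 gene of branched-chain amino acid breakdown, 1 energy regulator and Bmp6 of TGF-beta family signalling higher. It also called Meox1 of the activated fibroblast markers, Tpm4 of the YAP and SRF targets and Fgl2 of the STAT3 and acute-phase list lower (-1.25 ± 0.27 for Fgl2). In the load list it called Vim, the vimentin of fibroblasts and other mesenchymal cells, lower (-1.39 ± 0.28). It called 0 of the 34 genes of oxidative phosphorylation and 0 of the 34 of fatty acid oxidation. Of all genes it called 0.18% higher and 0.489% lower, so 0 of 34 is near the share of all genes. These 0 counts do not show an equal response in the 2 genotypes. The median interaction was 0.68 over the first list and 0.79 over the second, beside 0.01 over all genes.

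The cKO TAC 7 d libraries share their sham group with the 3 d comparison, so their values are given side by side only. At 7 d edgeR called 3380 genes against the same sham libraries, and the median absolute fold change was 0.306, beside 0.162 at 3 d. Postn stood at 97.6, 120.0 and 149 CPM in cKO TAC 3 d and 678, 1224 and 373 CPM in cKO TAC 7 d, against 50.5, 43.5 and 28.7 CPM in cKO sham. Mki67 stood at 3.18, 1.73 and 7.76 CPM in cKO TAC 3 d and 24.7, 9.74 and 27.6 CPM in cKO TAC 7 d, against 3.49, 5.78 and 1.68 CPM in cKO sham. Median fold changes at 3 d and 7 d were 0.73 and 3.53 for activated fibroblast markers, 0.10 and 1.64 for collagens, and 0.19 and 2.20 for mitosis genes. For oxidative phosphorylation they were 0.10 and -0.55, and for fatty acid genes -0.13 and -0.74. Acute-phase genes had the larger median at 3 d, 0.87, and 0.50 at 7 d. Without cKO TAC 3 d replicate 2 their 3 d median was 0.41, below that of 7 d.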

How the data were processed

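RNA-seq was deposited for 18 mouse hearts in 6 groups of 3 and for 6 rat cell cultures, which were not used here. Per the labels' protocols, RNA was extracted with a Quick-RNA MicroPrep kit and libraries were made with a TruSeq RNA kit. The authors deposited raw counts, whole numbers for each Ensembl gene, and a length per gene. Bowtie 0.12.2 and the build mm9 are named, with no role, per the submitters' processing notes. The gene positions in the file are those of GRCm38: of 54495 IDs that GENCODE M21 holds, 53585 matched it in position. What counted the reads, and whether by strand, is not given in the sources used here, so overlapping and antisense genes cannot be told apart. A further 18 FPKM columns of the mouse table, and 6 columns beside the rat data that match no sample, were not used.

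Counts were filtered with filterByExpr (15535 genes, 99.9% of counts), scaled by TMM and fitted with edgeR 4.0.16 (quasi-likelihood, R 4.3.3) in 1 model of 18 libraries and 6 groups. Tests were two-sided, with Benjamini-Hochberg adjustment over all 15535 genes. DESeq2 1.42.0, limma 3.58.1 (voom with sample weights), other scalings, a gene length correction, no filter, a replicate block, and leaving out each library were tried as alternatives. The script was tested on simulated data. Libraries with the same replicate number did not deviate together (correlations 0.070, -0.159 and -0.073), so the numbers were not taken as pairs. The comparison, the 49 gene lists and the rule for named genes were chosen with earlier results of these data known. The rule takes Atf4, 5 load markers, the 10 genes in each direction with the smallest p, a floor of 1 on the mean log2 CPM scale and groups that do not overlap (since none was called), 1 gene per list, and 6 called interaction genes in each direction. One gene that the rule takes is not reported here. Genes named beside these were chosen after their values were seen. Motif searches used RefSeq promoters of GRCm38.p6.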

Additional observations from a re-analysis of the deposited data

Results flagged for a closer look

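For 13 of the named genes the TAC response differed between the genotypes by the test of the interaction, with an adjusted p under 0.05 in edgeR. Values are the log2 fold change in cKO minus that in ctrl. It was -4.36 for Ccnf, -3.83 for Cdca8, -3.55 for Mki67, -3.36 for Ect2, -3.26 for Anln, -3.20 for Kif4 and -2.63 for Col8a1, all of which rose in ctrl. Among genes that fell in ctrl it was 3.69 for Inmt, 3.13 for Ppl, 3.03 for Penk, 2.89 for Fmo2, 2.40 for Gsta3 and 2.04 for Klf15. None of the 13 keeps an adjusted p under 0.05 when each library is left out in turn, since the interaction then calls 0 genes without any 1 of 8 of the 12 libraries.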

How the results depend on the processing

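Between cKO TAC 3 d and cKO sham the count of 0 called genes stayed at 0 with DESeq2's size factors in edgeR, library sizes only, voom weights, the gene length correction, the 6 libraries alone, and with both outlying libraries left out (replicate 2 of cKO TAC 3 d, replicate 3 of ctrl TAC 3 d). DESeq2 called 31 and no filter 219, of which 217 were among the genes of the filtered test. Leaving out 1 library gave 0 to 6. With a replicate block the count was 0, with 1244 genes at an unadjusted p under 0.05. The interaction, 104 called genes, gave 863 with DESeq2, 285 with library sizes only (24 higher and 261 lower), 1597 with no filter, 1348 with voom weights, 0 with the 12 libraries alone and 0 without the 2 libraries that lie apart. Leaving out 1 library gave 0 to 1469, and a replicate block 101. In ctrl, 4225 genes were called, 2311 to 5007 when 1 library was left out (2311 without ctrl TAC 3 d replicate 3 and 2804 without ctrl sham replicate 1), and 4956 with library sizes only (4086 higher and 870 lower). With library sizes only the median of all genes was -0.02 in cKO, against 0.01 in the main fit. It lay near 0.23 in ctrl and near -0.25 in the interaction. Genes higher in every cKO TAC 3 d library numbered 1966 to 2585 and those lower 1586 to 2214 when 1 library was left out. The alternatives for non-overlapping groups, for ctrl and for the 2 libraries together were chosen after seeing the data.

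Of the named genes' values, 1033 kept direction and side of the threshold, 56 newly passed it and 17 changed sign, all in genes near 0 in cKO. Leaving out 1 library gave -0.14 to 0.55 for Cdca8, -0.56 to 0.74 for Mki67, -0.22 to 0.47 for Ect2, -0.76 to 0.17 for Anln, -0.99 to 0.56 for Kif4, -0.054 to 0.25 for Ppl, -0.11 to 0.53 for Gsta3 and -0.11 to 0.50 for Klf15. Cdca8, Mki67 and Ect2 changed sign without replicate 3 of cKO TAC 3 d and without that of cKO sham (-0.0083, -0.11 and -0.15 in the second case). Anln and Kif4 did so without replicate 2 of either group, Kif4 also without cKO TAC 3 d replicate 1 (0.025), Ppl and Gsta3 without that library or cKO sham replicate 2, and Klf15 without cKO TAC 3 d replicate 2. Klf15 was -0.013 with voom weights. The cause was not tested.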
